A study of Arabidopsis thaliana with 60 samples.

Results

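The genes described here are those carried by the chloroplast's own genome in Arabidopsis thaliana. They were taken as every gene identifier that begins with ATCG and holds at least 1 read in the 60 RNA sequencing libraries of the study. Of 133 such identifiers, 103 met this rule and 30 were at 0 in every library, in a table of 32833 genes. At the edge of the rule, 4 genes held 1 read in all libraries together, and 54 genes held at least 1000 reads. The 103 genes together held 447389 reads.

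All plants were Col wild type at the bolting stage, kept at 23 °C with 14 h of light at 50 µmol m-2 s-1 and 10 h of dark. Leaves received high light (HL, 1700 µmol m-2 s-1 from a gooseneck lamp), heat stress (HS, from a block placed 2 cm below the leaf), the 2 together on 1 leaf (HL+HS), or 1 on each of 2 leaves of a plant (HL&HS), for 2 or 8 min. Leaf libraries came from the stressed leaves: HL, HS, HL+HS, the lit leaf and the heated leaf of HL&HS plants (HL leaf and HS leaf in the plots) at each time, and an unstressed control at 0 min, which gives 11 groups and 33 libraries. Stem libraries came from the stem of the same kinds of plants, which was not itself treated: HL, HS, HL+HS and HL&HS at each time and a control at 0 min, which gives 9 groups and 27 libraries. Each group had 3 libraries, and the labels do not say whether these came from separate plants, so the p-values measure the spread between these samples, which may be technical. There was no unstressed control at 2 or 8 min, and the same 3 controls of a tissue served all its comparisons.

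The chloroplast genome encodes core subunits of the photosystems, of the cytochrome complex, of the ATP synthase and of Rubisco, together with the ribosomal and transfer RNAs of the organelle and part of its gene expression machinery. It is transcribed by a bacterial-type RNA polymerase, whose core is encoded in the chloroplast and whose sigma factors are encoded in the nucleus, and by a phage-type polymerase encoded in the nucleus. Chloroplast transcripts mostly lack a stable poly(A) tail, and short tails added to them mark RNA for decay. A library made from polyadenylated RNA therefore holds only a small part of the chloroplast RNA, and that part need not move with the whole. The labels give total RNA and a TruSeqHT library kit and do not say whether polyadenylated RNA was selected or ribosomal RNA removed. Whether a change below is one of RNA amount or of the part of it that entered a library was not tested.

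The files do not pair the ATCG identifiers with gene names, and none of the 133 matched an entry of the reference annotation, so lists by photosynthetic complex could not be made. Notes in that annotation mention 7 of the identifiers as the best match of a nuclear gene, and 4 of the genes tested get a name in this way: ATCG00670 (the ClpP protease subunit), ATCG00530 (a CemA-like protein related to proton extrusion), ATCG00750 (ribosomal protein S11) and ATCG00660 (ribosomal protein L20). All others are given by identifier alone. Values per gene are normalized counts as deposited, and shares are chloroplast reads per 1000000 counted reads (RPM). Gene lengths could not be tied to the identifiers, so an order of genes below is an order of reads, not of RNA level per length.

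Libraries of the 0 and 8 min groups held 11071918 to 12998149 reads, with 1301 to 10814 on chloroplast genes, while those of the 2 min groups held 31725824 to 47559552 reads, with 6344 to 18557 on chloroplast genes. Depth and the 2 min groups therefore cannot be told apart in any comparison of 2 min with control. Only genes whose normalized counts averaged 10 or more in the libraries fitted were tested, which left 76 chloroplast genes in leaf, 44 in stem and 69 over both tissues. In leaf, 3 of the 76 passed although their control mean was below 10, and in stem none did. A gene is called when its Benjamini-Hochberg adjusted p in limma, over all genes tested, is under 0.05. For the leaf groups at 8 min with a single stress, the title names one stress and the treatment tag the other. They are called here the group titled HL and the group titled HS, and the directions below would change places if the tags are right.

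In unstressed plants, chloroplast genes took 415, 423 and 417 RPM in the 3 leaf libraries, against 161, 156 and 160 in the 3 stem libraries. Every leaf library was above every stem library, and the ratio of the means was 2.63. In bulk tissue, fewer cells with chloroplasts and less chloroplast RNA per cell cannot be told apart. Of the 69 genes tested over both tissues, 64 were higher in leaf and 0 were lower, where 41.6% of all 18893 genes tested were called higher and 41.3% lower. Their median difference, leaf minus stem, was 1.40 on the log2(normalized count + 1) scale, against 0.0049 over all genes tested, and 53 of the 64 differed at least 2-fold. The 2-fold count over all genes was not computed. Other RNA that mostly lacks a poly(A) tail was set beside the chloroplast genes. Of 23 mitochondrial genes tested, 20 were called higher in leaf and 0 lower, with a median of 2.08. The nuclear genes of ribosomal, transfer and other small RNAs summed to 445 to 572 RPM in leaf control, against 229 to 313 in stem control. Taken singly, 4 of the 40 tested were called higher in leaf and 10 lower, with a median of -0.13. Both of these shares are below the 41.6% and 41.3% of all genes. The part of these RNAs in the leaf to stem difference was not tested. The 6 leaf markers fixed as a list (such as RBCS1A and RCA) were all called higher in leaf, with a median of 0.44, and the 12 stem markers of secondary wall and xylem (such as CESA4 and XCP1) were all called lower, with a median of -6.89.

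ATCG00020 held more reads than any other chloroplast gene in leaf and differed most between the tissues. It had 1889, 2065 and 2091 normalized counts in leaf control libraries, against 195, 217 and 201 in stem control libraries. The groups stood far apart, with a log2 difference of 3.30 (SE 0.16, adjusted p = 1.19e-26). It took 22.0% of the chloroplast reads in leaf control and 6.79% in stem control, and the leaf to stem ratio of chloroplast reads was 2.20 without it.

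After ATCG00020, the genes with most reads in leaf control were ATCG00490 with 42.5 RPM, ATCG00280 with 26.2, ATCG00480 with 24.1 and ATCG00340 with 16.7, and these 5 genes held 48.2% of the chloroplast reads. In stem control ATCG00490 came first with 19.5 RPM, then ATCG00480 with 14.8, ATCG00020 with 10.8, ATCG00190 with 8.87 and ATCG00340 with 6.43, and these 5 held 38.0%. ATCG00490 had 906, 927 and 959 normalized counts in leaf control and 350, 352 and 407 in stem control, a log2 difference of 1.33 (SE 0.15, adjusted p = 8.90e-12). ATCG00190 differed least among the genes called, with a mean of 219.5 in leaf control and 167.9 in stem control and a log2 difference of 0.39 (SE 0.11). The 5 genes not called, named after their values were seen, were ATCG00110, ATCG00170, ATCG00220, ATCG00300 and ATCG00800.

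**Figure D1:**
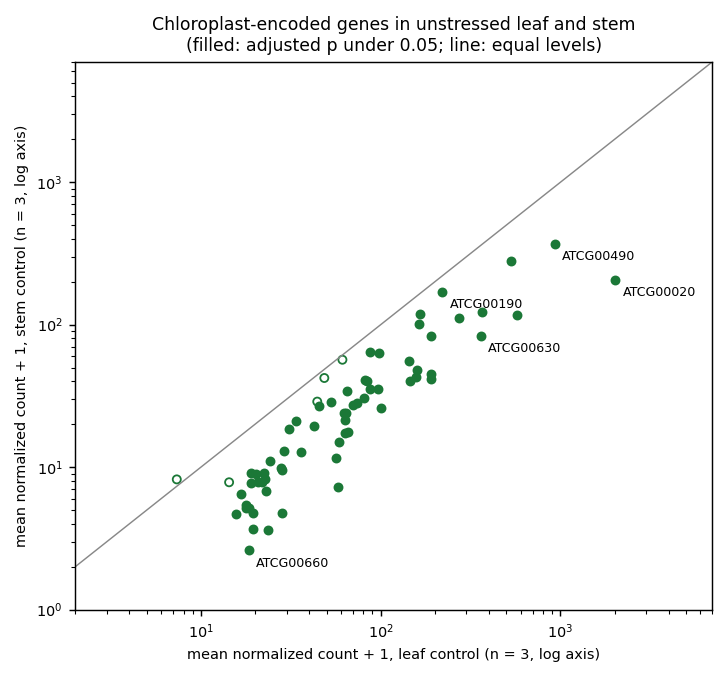
Mean normalized count plus 1 of each chloroplast gene tested over both tissues in leaf control (horizontal log axis) and stem control (vertical log axis), 3 libraries each. Filled points have an adjusted p under 0.05, and the line marks equal values. The 64 filled points all lie on the leaf side of the line, ATCG00020 farthest from it.

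At 8 min the share of chloroplast reads was highest in the group titled HL. It was 836, 769 and 763 RPM there, against 415, 423 and 417 in leaf control, a ratio of means of 1.89. Without ATCG00020 the ratio was 1.90, so the difference did not rest on that gene. In the lit leaf of HL&HS plants the share was 551, 735 and 545 RPM, 1.46 times control. In HL+HS leaves it was 486, 558 and 489 RPM, 1.22 times control. The heated leaf of HL&HS plants had 536, 435 and 455 RPM, 1.14 times control. In all 4 of these groups every library was above every control library. The group titled HS had 360, 433 and 436 RPM, with a mean of 410 ± 42.6 (SD, n = 3), and overlapped control at 419 ± 4.24 (SD, n = 3).

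At 2 min the share in leaf was at or below control. HS leaves had 342 ± 10.5, HL+HS leaves 325 ± 19.2 and the lit leaf of HL&HS plants 349 ± 6.59 RPM, against 419 ± 4.24 in control (SD, n = 3 each). Every library of these 3 groups was below every control library, with ratios of 0.818, 0.778 and 0.834. HL leaves had 377 ± 44.0 and the heated leaf of HL&HS plants 365 ± 44.4 RPM (SD, n = 3 each), and both overlapped control. Beside these, the sum over 998 nuclear genes of ribosomal, transfer, small nuclear and small nucleolar RNA, which carry no poly(A) tail, lay between 251 and 367 RPM in the 15 leaf libraries at 2 min and between 445 and 572 RPM in leaf control. The mitochondrial share was 228 to 235 RPM under HL+HS and 205 to 224 in the heated leaf, against 258 to 294 in control, and overlapped control in the other 3 groups at 2 min. Of 26 mitochondrial genes tested, 1 was called higher and 5 lower under HL+HS, where 18.2% of all genes were called higher and 15.5% lower. In the heated leaf 0 of the 26 were higher and 4 lower, where 18.4% and 12.5% of all genes were. The part of these in the lower chloroplast share at 2 min was not tested.

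In stem the shares lay closer to control. At 2 min HL stems had 162 ± 7.36, HS stems 178 ± 15.2, HL+HS stems 147 ± 1.59 and HL&HS stems 152 ± 8.85, against 159 ± 2.87 RPM in stem control (SD, n = 3 each). At 8 min HL stems had 155 ± 13.3, HS stems 147 ± 6.66, HL+HS stems 138 ± 20.3 and HL&HS stems 164 ± 9.38 (SD, n = 3 each). All libraries were above control under HS at 2 min, with a ratio of 1.12, and below control under HL+HS at 2 min and under HS and HL+HS at 8 min, with ratios of 0.923, 0.928 and 0.871. The other 4 stem groups overlapped control. Stem markers were lower in all 24 stressed stem libraries, with summed normalized counts of 43426 to 73625 against 91852 to 95032 in stem control. A list of 6 floral markers, low in counts, summed to 116 to 126 in stem control. At 2 min the sums were 45.6 to 59.8 under HL+HS, 76.3 to 89.8 under HL, 122 to 148 under HS and 98.4 to 125 under HL&HS. At 8 min they were 28.4 to 45.6 under HS, 32.9 to 42.2 under HL+HS, 148 to 225 under HL and 114 to 132 under HL&HS. The part of either list in the stem results was not tested.

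**Figure D2:**
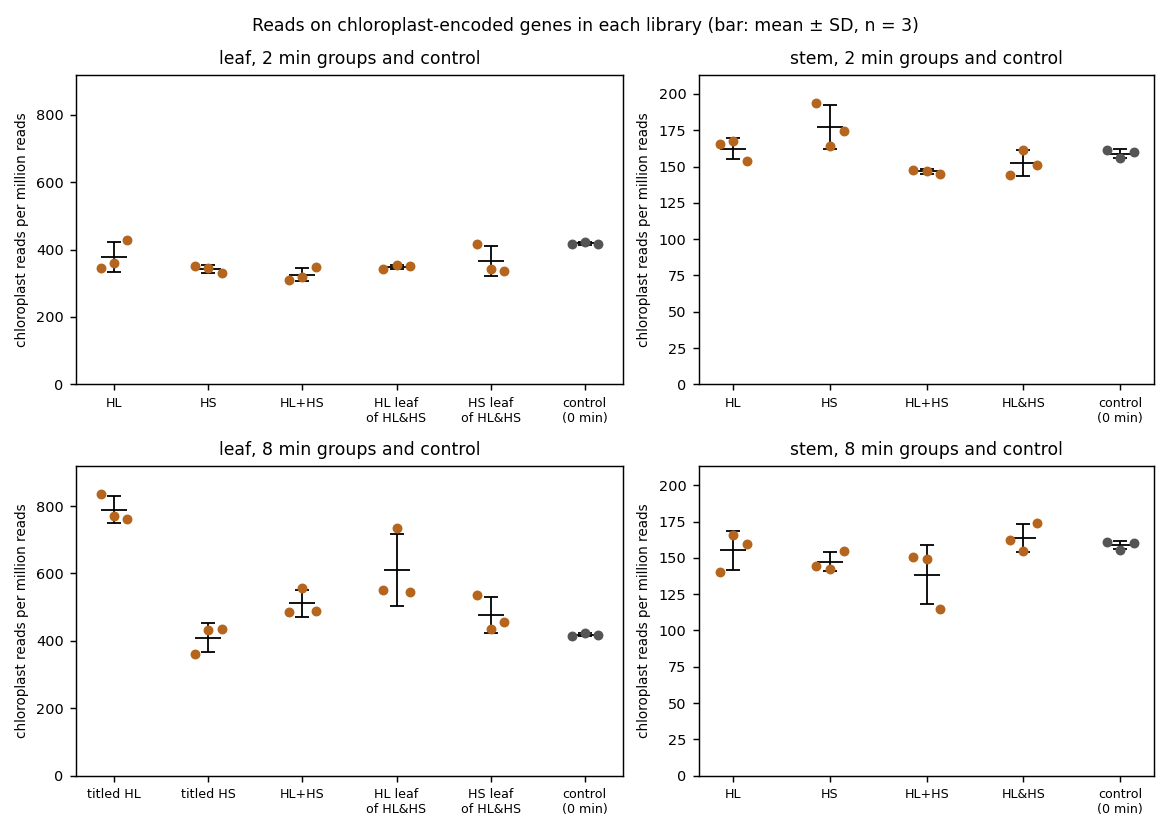
Chloroplast share in RPM, or reads per 1000000 counted reads (vertical axis, from 0, with separate scales for leaf and stem) in each library of each stress group and, at the right of each panel, the control. Points are libraries and bars are the mean ± SD of 3. In leaf at 8 min the group titled HL lies between 763 and 836 RPM, above every control library at 415 to 423.

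In the group titled HL at 8 min, 52 of the 76 chloroplast genes tested in leaf rose and 0 fell, where 18.9% of all 18231 genes were called higher and 14.0% lower. The median change of the 76 was 0.73 on the log2 scale, against 0.010 over all genes, and 73 of them lay above 0. Of the 52, 24 rose at least 2-fold, and 47 had every library of the group above every control library. Neither count was computed over all genes, so no background stands beside them. Of the 73 that reach the limit on counts over the other 30 leaf libraries alone, 50 rose, with a median of 0.72. Leaving out a library in turn gave 45 to 50 called genes. The changes ran from -0.44 to 2.81.

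ATCG00300 rose most in that group. It had 40.4, 57.0 and 48.9 normalized counts in the group titled HL, against 3.55, 8.41 and 7.05 in control, or 23, 28 and 27 reads against 2, 5 and 4. The groups did not overlap, and the log2 change was 2.81 (SE 0.49, adjusted p = 1.33e-05). In the lit leaf of HL&HS plants ATCG00300 had 16.3, 37.9 and 12.4 normalized counts, again above all controls, with a log2 change of 1.57 (SE 0.49, adjusted p = 0.0125). ATCG00350, chosen after its values were seen, rose next most with a far smaller error. It had 1025, 856 and 995 normalized counts in the group titled HL, against 165, 143 and 178 in control, a log2 change of 2.56 (SE 0.13, adjusted p = 2.33e-19). Its means in the other 8 min groups were 377 (lit) and 241 (heated) in HL&HS plants, 300 under HL+HS and 166 in the group titled HS, against 162 in control.

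The 5 genes with most reads in leaf all rose in the group titled HL. ATCG00020 had 4140, 4036 and 3459 normalized counts there, against 1889, 2065 and 2091 in control, a log2 change of 0.94 (SE 0.14, adjusted p = 5.60e-07). ATCG00490 had 2369, 2286 and 2232, against 906, 927 and 959 in control, a change of 1.30 (SE 0.11, adjusted p = 1.84e-12). ATCG00280 changed by 1.06 (SE 0.12), ATCG00340 by 0.96 (SE 0.12) and ATCG00480 by 0.56 (SE 0.07). For each of the 5, no library of the group titled HL was as low as a control library.

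Among the 4 genes that the annotation lets be named, ATCG00530, the CemA-like protein, had a mean of 191 normalized counts in the group titled HL, against 95.2 in control, a log2 change of 0.98 (SE 0.17, adjusted p = 1.86e-05). ATCG00670, the ClpP subunit of the stromal protease, had 151 in the group titled HL, against 97.4 in control, a change of 0.60 (SE 0.17, adjusted p = 0.0051). ATCG00750, ribosomal protein S11, was called with overlapping libraries, at 51.8 in the group titled HL and 33.01 in control, a change of 0.71 (SE 0.22, adjusted p = 0.0107). ATCG00660, ribosomal protein L20, was not called, with 13.4 in the group titled HL and 17.4 in control and a change of -0.44 (SE 0.41, adjusted p = 0.44).

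Genes of middle and high level both took part in the rise in the group titled HL. Of the middle 25 by control mean, 17 rose, with a median of 0.73 on the log2 scale, and of the 25 with the highest control means, 20 rose, with a median of 0.66. The 26 genes of lowest level are not read in this way, since ATCG00210, ATCG00290 and ATCG01040 reached the limit on counts only through that group. Identifiers are numbered in order along the chloroplast genome. All 6 genes tested from ATCG00300 to ATCG00380 rose, with a median of 1.47. All 6 from ATCG00010 to ATCG00090 and all 6 from ATCG00420 to ATCG00490 rose as well, with medians of 0.95 and 0.73. Of the 10 genes from ATCG00700 to ATCG00790, 5 rose, with a median of 0.48. No test of a difference between such stretches was made. The 27 chloroplast genes below the limit on counts in leaf, of which 3 had no read there, were not tested singly. Together they held 10.8 ± 0.94 RPM in the group titled HL, against 2.39 ± 0.49 in control (SD, n = 3 each), or 400 reads against 90.

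The other leaf groups at 8 min had fewer called genes. In the group titled HS, 3 of 76 rose and 1 fell, where 19.0% of all genes were called higher and 14.1% lower. Those named by rule were ATCG00360, at 30.0, 46.9 and 41.8 normalized counts in the group titled HS against 8.88, 26.9 and 26.4 in control (log2 change 1.02, SE 0.33, adjusted p = 0.0149), and ATCG00640, at 24.4, 21.6 and 5.71 against 30.2, 26.9 and 24.7 (change -0.85, SE 0.32, adjusted p = 0.0398). The fall of ATCG00640 was not called by edgeR (adjusted p = 0.22) or DESeq2 (adjusted p = 0.20). Both tools called 1 chloroplast gene higher and 0 lower in this group.

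Under HL+HS at 8 min, 22 of 76 genes rose and 0 fell, with a median of 0.36, where 18.0% of all genes were called higher and 17.5% lower. ATCG00110 rose most among those with separate libraries, to 23.5, 30.9 and 21.9 normalized counts under HL+HS, against 17.8, 13.5 and 8.82 in control, a log2 change of 0.92 (SE 0.32, adjusted p = 0.0209; edgeR 0.057, DESeq2 0.079). In the lit leaf of HL&HS plants 27 rose and 0 fell, with a median of 0.44, where 17.4% of all genes were called higher and 11.5% lower. In the heated leaf 21 rose (27.6% of the 76) and 0 fell, with a median of 0.35. Of all genes 24.6% were called higher there and 17.8% lower, so the share that rose was near the background. ATCG00080 rose most there, to 104, 81.4 and 77.9 normalized counts, against 33.8, 58.9 and 40.5 in control, a change of 0.99 (SE 0.28, adjusted p = 0.0038).

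ATCG00730 was the one chloroplast gene called higher in all 5 leaf groups at 8 min, where 6.60% of all genes were. Its mean was 203 with the title HL, 184 with the title HS, 212 with both stresses on 1 leaf, and 251 (lit) and 210 (heated) in HL&HS plants, against 145 in control. The log2 changes ran from 0.33 to 0.77. In the group titled HS the call was lost with edgeR (adjusted p = 0.063) and DESeq2 (adjusted p = 0.070). Of the 76 genes, 22 rose in none of the 5 groups, 21 in 1 group, 10 in 2, 9 in 3 and 13 in 4. These counts were not computed over all genes, so no background stands beside them.

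**Figure D3:**
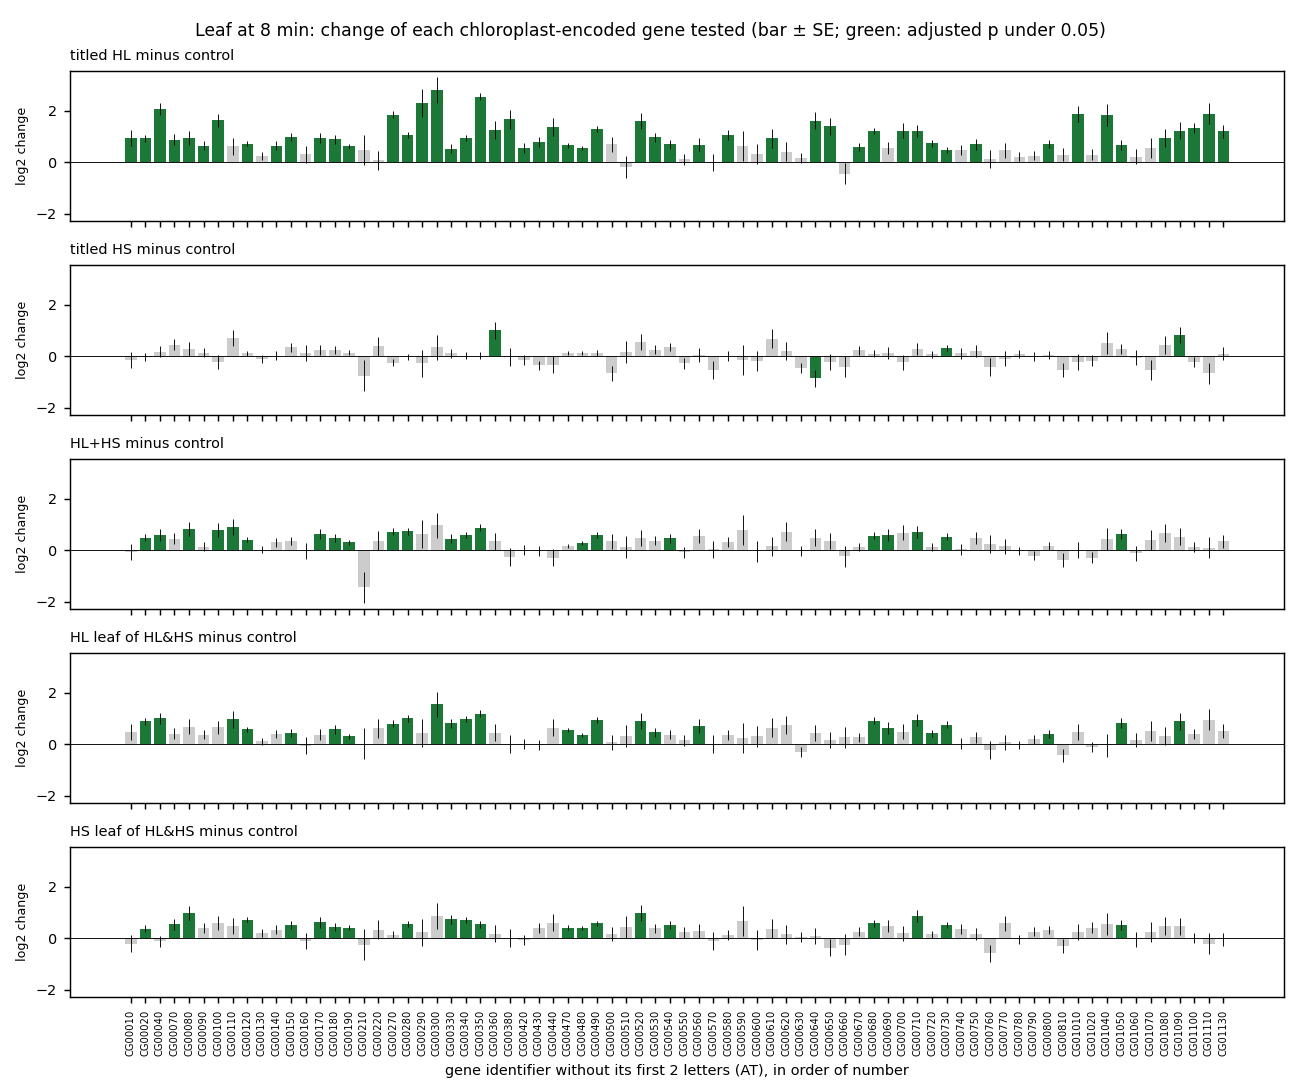
Log2 change of each of the 76 chloroplast genes tested, for the 5 leaf groups at 8 min minus control, in order of identifier. Bars are changes with their SE, and green bars have an adjusted p under 0.05. The top panel, the group titled HL, has 52 green bars, all above 0, and the panel of the group titled HS has 4.

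Nuclear genes that serve the chloroplast were set beside these in the group titled HL, where 18.9% of all genes were called higher and 14.0% lower. No test between lists was made. Of 21 nuclear photosynthesis subunits that join chloroplast-encoded ones, 17 rose and 0 fell, with a median of 0.19. Of 8 nuclear sigma factors and phage-type polymerases, which carry out chloroplast transcription, 0 rose and 5 fell, with a median of -0.15. SIGE (AT5G24120), a sigma factor of the chloroplast polymerase, had 10766 ± 179 normalized counts in the group titled HL, against 14892 ± 118 in control (SD, n = 3 each), a log2 change of -0.47 (SE 0.03, adjusted p = 8.34e-17). Of 12 proteins associated with that polymerase, 2 rose and 7 fell. PTAC7 (AT5G24314) changed by 0.30 (adjusted p = 0.0011) and PTAC14 (AT4G20130) by -0.26 (adjusted p = 2.80e-05). Of 12 genes of chloroplast RNA processing and decay, 4 rose and 4 fell. The gene of the RNase J ribonuclease (AT5G63420) changed by -0.53 (adjusted p = 5.78e-08), and CSP41A (AT3G63140), an RNA-binding protein, by 0.24 (adjusted p = 1.73e-04).

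In the heated leaf of HL&HS plants, where 24.6% of all genes were called higher and 17.8% lower, the same lists gave 3 higher and 3 lower of 8 sigma factors and polymerases, 4 and 3 of 12 polymerase-associated proteins, 9 and 1 of 12 processing genes, and 21 and 0 of 21 photosynthesis subunits. In the lit leaf these were 1 and 3, 2 and 1, 5 and 3, and 21 and 0, beside 17.4% and 11.5% of all genes. In the group titled HS they were 0 and 4, 0 and 10, 2 and 8, and 12 and 1, beside 19.0% and 14.1%. Under HL+HS they were 0 and 5, 1 and 2, 3 and 4, and 18 and 1, beside 18.0% and 17.5%. In leaf against stem controls, where 41.6% of all genes were called higher and 41.3% lower, all 8 sigma factors and polymerases and all 12 processing genes were called higher in leaf, as were 10 of the 12 polymerase-associated proteins, with 1 lower, and 20 of the 21 photosynthesis subunits.

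Other measures moved with some of these groups. Of 10 stem markers tested in leaf, 6 rose in the group titled HL, while all 10 rose in the lit leaf of HL&HS plants. Their summed normalized counts were 1634 to 1838 in the group titled HL and 1787 to 4368 in the lit leaf, against 1008 to 1121 in leaf control. Under HL+HS 0 of the 10 were called, with sums of 1012 to 1086, in a group where 22 chloroplast genes rose. Mitochondrial genes, whose RNA also mostly lacks a poly(A) tail, numbered 26 tested. Of these, 3 rose and 0 fell in the group titled HL, with a median of 0.17, where 18.9% of all genes were called higher. Under HL+HS 9 rose and 0 fell, with a median of 0.37, where 18.0% of all genes were called higher. In the lit leaf 4 rose (17.4% of all genes) and in the heated leaf 2 (24.6%). The group titled HS had 1 higher and 1 lower (19.0% and 14.1%). The mitochondrial share was 315 to 382 RPM under HL+HS, above every control library at 258 to 294. It overlapped control in the other leaf groups at 8 min. The nuclear RNAs without a poly(A) tail summed to 544 to 560 RPM in the group titled HL and overlapped control at 445 to 572. Of 35 of them tested, 6 rose and 0 fell there, where 18.9% of all genes were called higher and 14.0% lower. Under HL+HS 9 rose and 0 fell (18.0% and 17.5% of all genes), and in the group titled HS 5 and 4 (19.0% and 14.1%). In the lit leaf 6 rose and 0 fell (17.4% and 11.5%), and in the heated leaf 9 and 1 (24.6% and 17.8%). The 6 leaf markers all rose in the heated leaf, with a median of 0.58, and in the lit leaf, with a median of 0.28. Under HL+HS 5 of them rose (median 0.31), and 4 each in the groups titled HL (0.24) and HS (0.17). Of these markers 0 fell in any of the 5 groups. The part of any of these in the chloroplast results was not tested.

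Setting HL+HS directly against a single stress leaves out the shared controls. Against the group titled HL at 8 min, 0 of the 76 genes were higher under HL+HS and 41 were lower, where 16.0% of all genes were called higher and 17.7% lower. The median difference was -0.46, and 16 of the 41 differed at least 2-fold, a count not computed over all genes. ATCG00380 had 13.7, 27.04 and 8.76 normalized counts under HL+HS, against 59.7, 57.0 and 63.4 in the group titled HL, a log2 difference of -1.94 (SE 0.35, adjusted p = 2.93e-05). ATCG00350 had 272, 338 and 291 under HL+HS, against 1025, 856 and 995 in the group titled HL, a difference of -1.67 (SE 0.13). The chloroplast share was 511 ± 40.5 RPM under HL+HS and 789 ± 40.4 in the group titled HL (SD, n = 3 each), without overlap.

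Against the group titled HS at 8 min, 12 of the 76 genes (15.8%) were higher under HL+HS and 0 were lower, with a median of 0.23. Of all genes 12.1% were called higher and 15.8% lower, so the share called higher was near the background. Of 26 mitochondrial genes tested, 7 were higher and 0 lower, with a median of 0.35. Of 35 nuclear RNAs without a poly(A) tail, 10 were higher and 0 lower, with a median of 0.39. The part of these RNAs in this contrast was not tested. ATCG00640 had 39.1, 42.5 and 35.1 normalized counts under HL+HS, against 24.4, 21.6 and 5.71 in the group titled HS, a difference of 1.34 (SE 0.32, adjusted p = 0.0013). At 2 min, HL+HS against HL gave 2 called genes, both lower, where 26.7% of all genes were called. ATCG00280 was among them, at 407, 409 and 476 normalized counts under HL+HS against 496, 528 and 650 under HL, a difference of -0.37 (SE 0.12, adjusted p = 0.0229). HL+HS against HS at 2 min gave 3 called genes, 1 higher and 2 lower (0 and 2 with rescaling within the tissue), where 30.5% of all genes were called. ATCG00190 differed by 0.26 (SE 0.10) and ATCG01020 by -0.61 (SE 0.21). These shares of the 76 genes, at 2 min, are below the background.

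Against control at 2 min, more of the called genes were lower than higher in each leaf group. Under HL 4 were higher and 8 lower, where 13.1% of all genes were called higher and 6.77% lower. Under HS 0 were higher and 5 lower, where 11.0% and 7.25% of all genes were. Under HL+HS 4 were higher and 17 lower (22.4% of the 76), where 18.2% and 15.5% of all genes were. In the lit leaf of HL&HS plants 4 were higher and 13 lower (17.1% of the 76), where 15.6% and 10.9% of all genes were. In the heated leaf 4 were higher and 5 lower, where 18.4% and 12.5% of all genes were, and rescaling within the tissue gave 2 higher and 7 lower. The median changes were -0.09, -0.21, -0.26, -0.21 and -0.02 in that order of groups. The share called lower was above that of all genes under HL (10.5% of the 76), under HL+HS and in the lit leaf, and below it in the other 2 groups, while the share called higher was below it in all 5. Depth differs between the groups compared.

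ATCG00020 was called lower in all 5 leaf groups at 2 min, where 1.45% of all genes were. It had 1404, 1412 and 1870 normalized counts under HL, 1170, 1230 and 1222 under HS, 1160, 1148 and 1392 with both on 1 leaf, 1519, 1642 and 1398 (lit) and 2273, 1378 and 1183 (heated) in HL&HS plants, against 1889, 2065 and 2091 in control. The heated leaf overlapped control through its first library, and the other 4 groups lay below every control. The log2 changes ran from -0.74 under HS to -0.38 under HL and in the heated leaf. Under HS the adjusted p was 8.14e-05 and under HL+HS 6.02e-05. The calls under HL and in the heated leaf were lost with edgeR (adjusted p = 0.058 and 0.059) and DESeq2 (0.14 and 0.14), and that in the lit leaf with DESeq2 (0.068).

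Further genes were called lower at 2 min, over a range of levels. Among those with more reads, chosen after their values were seen, ATCG00280 averaged 431 normalized counts under HL+HS and 574 in control, a log2 change of -0.42 (SE 0.12, adjusted p = 0.0075), and ATCG01020 averaged 72.6 under HL+HS and 143 in control, a change of -0.99 (SE 0.21, adjusted p = 1.95e-04). The largest falls were in genes with few counts. ATCG00510 had 6.63, 4.44 and 4.79 normalized counts under HL and 3.20, 5.003 and 6.15 under HL+HS, against 10.7, 23.6 and 22.9 in control, with log2 changes of -1.61 (SE 0.42, adjusted p = 0.0044) and -1.75 (SE 0.42, adjusted p = 0.0011). ATCG00700 had 17.1, 8.12 and 11.4 under HS, against 21.3, 42.1 and 17.6 in control, a change of -1.04 (SE 0.29, adjusted p = 0.0082). ATCG00590 had 3.24, 2.63 and 3.45 in the lit leaf of HL&HS plants, against 5.33, 30.3 and 30.0 in control, a change of -2.16 (SE 0.59, adjusted p = 0.0047). The first control library was low in both ATCG00510 and ATCG00590. Among genes that rose, ATCG00350 had 211, 205 and 270 under HL, against 165, 143 and 178 in control, a change of 0.49 (SE 0.13, adjusted p = 0.0066), and ATCG00180 changed by 0.47 (SE 0.17) in the lit leaf.

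**Figure D4:**
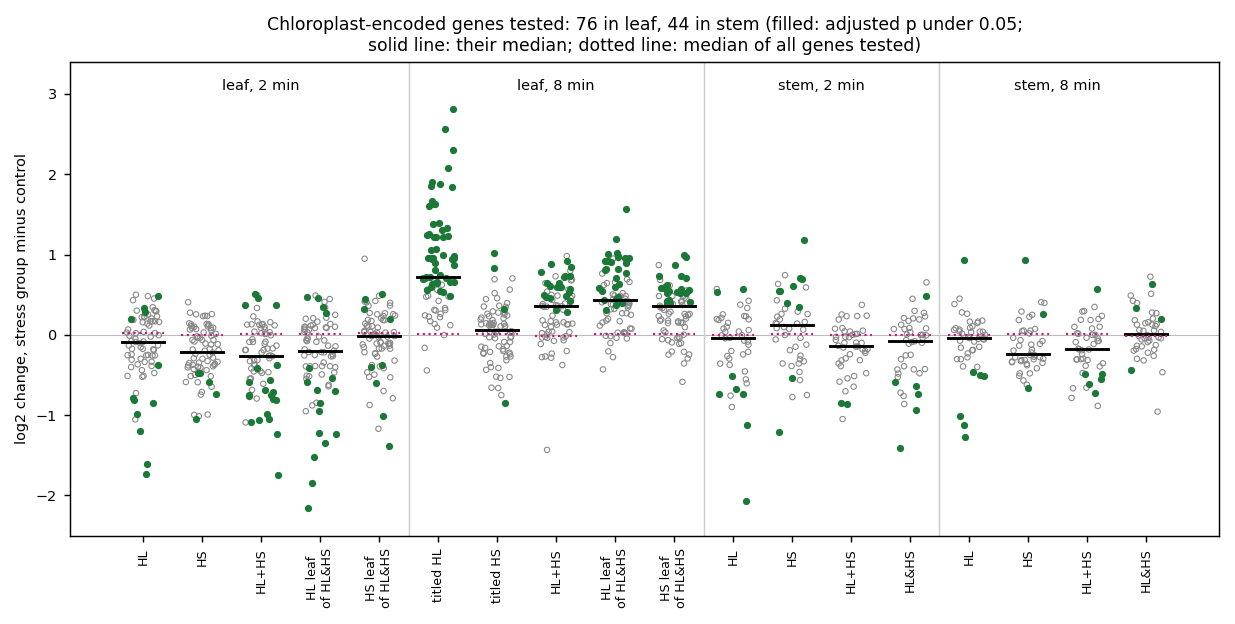
Log2 change of every chloroplast gene tested (points, 76 in leaf and 44 in stem) for each stress group minus the control of its tissue, with the median of these genes as a solid line and that of all genes tested as a dotted line. Filled points have an adjusted p under 0.05. The leaf groups at 8 min other than the one titled HS have medians from 0.35 to 0.73, and the leaf groups at 2 min have medians from -0.26 to -0.02.

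In stem the called shares, both directions together, were below the background in every comparison with control. At 2 min 8 of the 44 genes were called under HL (2 higher, 6 lower), where 42.8% of all genes were. Under HS 10 were called (8 higher, 2 lower), where 30.8% of all genes were. The 8 are 18.2% of the 44, where 15.7% of all genes were called higher and 15.0% lower. Under HL+HS 2 were called, both lower, where 36.2% of all genes were, and under HL&HS 6 were called (1 higher, 5 lower), where 41.0% of all genes were. At 8 min 7 were called under HL (1 higher, 6 lower), where 43.7% of all genes were, and 3 under HS (2 higher, 1 lower), where 34.4% were. Under HL+HS 6 were called (1 higher, 5 lower), where 33.6% of all genes were, and under HL&HS 4 were called (3 higher, 1 lower), where 42.9% were.

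ATCG00020 was called lower in all 4 stem groups at 2 min, where 11.5% of all genes were. It had 123, 146 and 101 normalized counts in HL stems, 150, 122 and 149 in HS stems, 108, 111 and 118 in HL+HS stems and 121, 130 and 114 in HL&HS stems, against 195, 217 and 201 in stem control. No library of these groups was as high as a control library. The log2 changes ran from -0.86 under HL+HS (SE 0.14, adjusted p = 6.81e-06) to -0.54 under HS (SE 0.14, adjusted p = 0.0034). At 8 min it had 146, 117 and 110 under HL+HS, a change of -0.72 (SE 0.14, adjusted p = 1.12e-04), and 132, 133 and 194 under HL&HS, a change of -0.44 (SE 0.14, adjusted p = 0.0128). Under HL at 8 min it had 127, 189 and 134, all below control, a change of -0.47 (SE 0.14, adjusted p = 0.0078). Its 8 min HS libraries, at 149, 203 and 187, overlapped control.

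**Figure D5:**
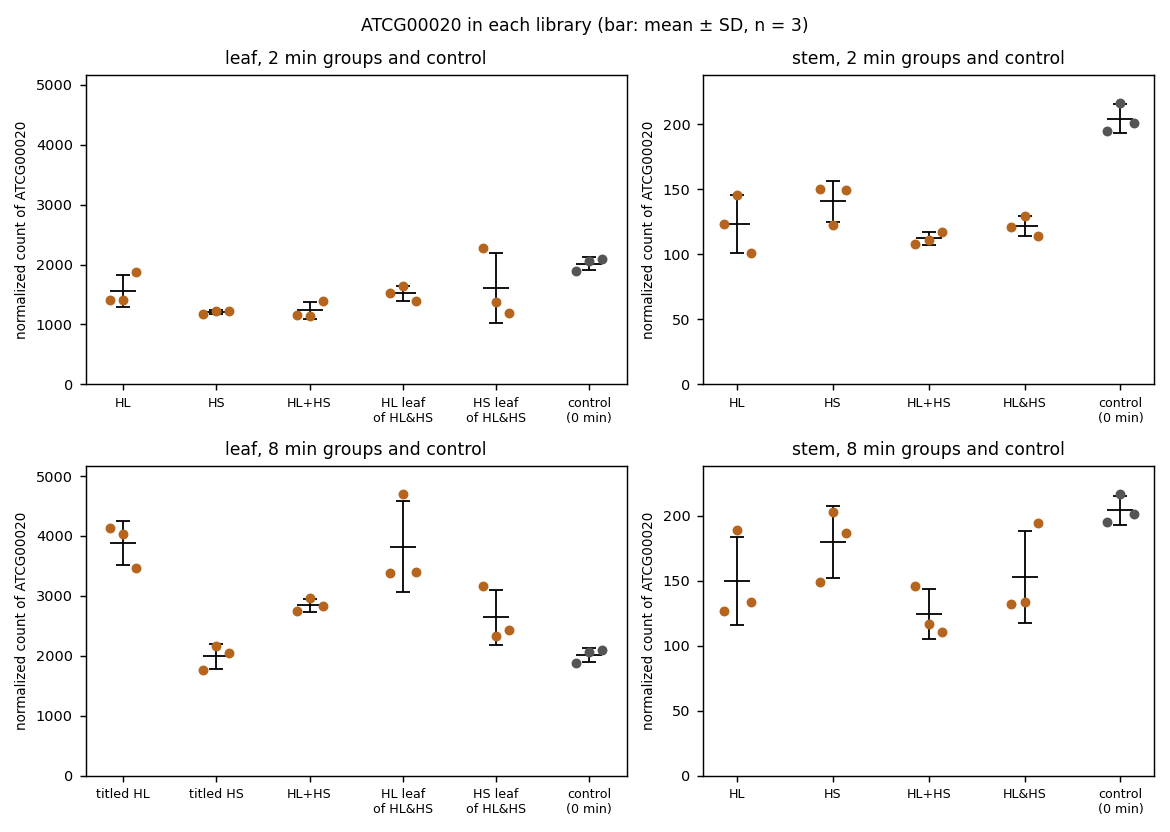
Normalized count of ATCG00020 (vertical axis, from 0, with separate scales for leaf and stem) in each library of each stress group and, at the right of each panel, the control. Points are libraries and bars are the mean ± SD of 3. At 2 min all stem groups lie below control, and in leaf at 8 min the group titled HL lies between 3459 and 4140, above control at 1889 to 2091.

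Further genes were called in stem. ATCG01130 had 47.3, 28.2 and 50.8 normalized counts under HS at 2 min, against 13.2, 26.5 and 15.2 in control, a log2 change of 1.18 (SE 0.33, adjusted p = 0.0051). ATCG00350 had a mean of 148 under HL at 2 min, against 100.3 in control, a change of 0.57 (SE 0.21, adjusted p = 0.0282), and ATCG00080 had 11.9, against 26.0, a change of -1.13 (SE 0.34, adjusted p = 0.0064). Under HL&HS at 2 min ATCG00220 changed by -1.41 (SE 0.47, adjusted p = 0.0150) and ATCG00790 by 0.48 (SE 0.19, adjusted p = 0.0416), the second not called by edgeR or DESeq2. At 8 min ATCG00790 changed by 0.63 (SE 0.19, adjusted p = 0.0069) under HL&HS. Under HL ATCG00040 changed by 0.93 (SE 0.30) and ATCG00550 by -1.13 (SE 0.38), and under HS ATCG00480 changed by 0.26 (SE 0.08) and ATCG00680 by -0.66 (SE 0.18), all called.

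Stresses on different leaves were set against stresses on the same leaf in stem. At 2 min HL&HS against HL+HS gave 0 called genes in limma, where 3.12% of all genes were called. At an unadjusted p under 0.05 there were 1 higher and 1 lower, and edgeR and DESeq2 each called 1 higher. At 8 min 8 of the 44 genes (18.2%) were higher under HL&HS and 0 lower, with 3 called by edgeR and 2 by DESeq2. Of all 18428 genes tested, 3074 were called higher and 3897 lower, 37.8% together. The called share of the 44, both directions together, was below that background. ATCG01130 had 20.2, 12.0 and 23.9 normalized counts under HL&HS, against 11.4, 12.0 and 6.70 under HL+HS, a log2 difference of 0.82 (SE 0.33, adjusted p = 0.0448), which edgeR (0.13) and DESeq2 (0.12) did not call.

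The response in leaf was tested against that in stem as the mean log2 change over HL, HS and HL+HS in leaf minus the same mean in stem. At 8 min, where the mean does not depend on which single-stress label is right, 24 of the 69 genes were called, 23 with a more positive change in leaf and 1 with a more negative one. Of all genes 19.0% and 12.9% were called in these directions. The median difference over the 69 was 0.66, against 0.020 over all genes. ATCG00350 differed by 1.36 (SE 0.23, adjusted p = 4.30e-06) and ATCG00300 by 2.16 (SE 0.67, adjusted p = 0.0098). EdgeR called 13 and DESeq2 15, all more positive in leaf. At 2 min 4 genes were called, all more negative in leaf, where 28.2% of all genes were called, with 1 called by edgeR and 2 by DESeq2. They were ATCG00280, at -0.50 (SE 0.17), ATCG00660, at -1.58 (SE 0.50), ATCG00810, at -0.91 (SE 0.33), and ATCG01100, at -1.24 (SE 0.32), named after their values were seen.

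The nuclear genes whose log2 normalized count followed the chloroplast share most closely over the 60 libraries were BBX31 (AT3G21890, Pearson r 0.96), BBX32 (AT3G21150, 0.96) and cPT4 (AT5G58770, 0.96). The first 2 encode B-box proteins of light responses and the third a prenyltransferase. Leaf and stem form separate clusters, so the values within each tissue say more. Over the 33 leaf libraries r was 0.82 for BBX31, 0.79 for BBX32 and 0.73 for cPT4, and over the 27 stem libraries it was 0.33, 0.26 and 0.48. The libraries share controls, times and depth classes, and no p is given. BBX31 had 1207 ± 130 normalized counts in the group titled HL and 960 ± 13.4 in leaf control (SD, n = 3 each). Its level did not keep the order of the share among the stressed groups: it had 1498 ± 83.8 in the lit leaf of HL&HS plants, where the share was 610 RPM, and 1197 ± 95.1 under HL+HS, where it was 511 RPM, beside 789 RPM in the group titled HL.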

How the data were processed

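RNA was sequenced single-end on an Illumina NextSeq from 60 libraries. The authors deposited a signal, normalized counts, for 32833 genes per library. Dividing each library by its smallest step gave whole reads for 100% of values within 1e-06 reads, and the size factors match median-of-ratios factors over 17810 genes to a relative 4.4e-15. The submitters' processing notes name FastQC 0.11.7, STAR 2.4.0.1, DESeq2 1.20.0 and TAIR10. The counting tool, its use of strand and its treatment of reads that map to several places are not given in the sources used here, and reads from the repeated parts of the chloroplast genome could be lost or split by them. All columns were assigned to samples by title (0 unassigned).

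The log2 of the deposited normalized count plus 1 was tested in limma 3.58.1 under R 4.3.3 (eBayes with a mean-variance trend). The libraries of a tissue shared 1 fit, and those of both tissues entered the fit of leaf against stem. Tests were two-sided, over genes averaging 10 or more normalized counts: 18231 in leaf, 18428 in stem and 18893 over both. There were 27 comparisons. Adding 1 understates the changes of genes with few counts. Fold and median values are on this scale, and shares use recovered reads and carry no test. Replicate pairs differed by more than sampling noise (chi-square per gene 1.34 to 6.60 over 60 pairs).

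The alternatives were: testing every gene, adding 0.1 in place of 1, rescaling by tissue, blocking on replicate number, fitting the compared groups alone, leaving out each library, edgeR 4.0.16 (quasi-likelihood) and DESeq2 1.42.0 on the recovered reads. With edgeR 3157 genes were higher and 1946 lower in the leaf group titled HL at 8 min, against 3452 and 2545 in limma. The rule for named genes took the 5 genes with most reads in each control, in each comparison the largest rise and fall among called genes with separate libraries, genes called alike in every group of a tissue and time, genes that the reference names, and 3 nuclear genes by likeness. The genes, lists and rules were chosen with earlier results of these data known. Names of nuclear genes are from RefSeq TAIR10.1, which matched 32548 nuclear identifiers. The share without ribosomal and transfer RNA genes was not computed, since the identifiers are not paired with names. Figures were drawn with matplotlib 3.10.9.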

Additional observations from a re-analysis of the deposited data

Results flagged for a closer look

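The log2 change from control, averaged over 3 stresses (HL, HS, HL+HS), differed between leaf and stem in 24 of 69 chloroplast genes at 8 min and in 4 at 2 min, by a test of that difference in limma. At 8 min 33.3% of the 69 were more positive in leaf and 1.45% more negative, where 19.0% and 12.9% of all genes were. At 2 min the 4 are 5.80% of the 69, below the 28.2% of all genes called. Among the 24, ATCG00300 differed by 2.16 on the log2 scale, leaf minus stem (SE 0.67, adjusted p = 0.0098). Its 3 leaf control libraries held 2, 5 and 4 reads and its stem controls 9, 1 and 4, so the stem controls spread widely. EdgeR (adjusted p = 0.0163) and DESeq2 (adjusted p = 0.0035) called it as well.

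ATCG00660, ribosomal protein L20, was the one gene called with a more negative response in leaf at 8 min, at -1.66 (SE 0.50, adjusted p = 0.0072), and it was also among the 4 at 2 min, at -1.58 (SE 0.50, adjusted p = 0.0122). It held 10 reads in each leaf control library and 1 read in each stem control library, while the stem groups at 8 min under HL, HS and HL+HS had 3.04 to 11.96 normalized counts, above every stem control at 1.47 to 1.69. The size of the difference depends on the added count at this depth. EdgeR did not call it at 2 min (adjusted p = 0.057) or at 8 min (adjusted p = 0.075).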

How the results depend on the processing

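Values below are chloroplast genes called, in either direction, unless said otherwise. With a pseudocount of 0.1, with rescaling (TMM between tissues) and with the replicate block, all 27 counts stayed within 1.5 times the reported ones. With the limit on counts set by the libraries outside the stressed group, chosen after seeing the data, all 18 counts against control did too. That limit was applied to the reported calls without a new fit. It left 73 of 76 genes in the leaf group titled HL, 75 in the lit leaf at 8 min, and all genes elsewhere. These counts could therefore hardly move. Same-numbered libraries of a tissue showed no pairing where this was checked: in 0 of 24 comparisons was every correlation of their deviations over 0.1 (range -0.13 to 0.11). Pairing of leaf with stem, and of the lit with the heated leaf of HL&HS plants, was not checked. With the replicate block 47 of 48 results for named genes kept their call and 1 lost it. No result for a named gene changed direction under any alternative. The log2 ratio of the chloroplast share to control did change sign in some 8 min groups when 1 library was left out. It ran from -0.077 to 0.053 in the leaf group titled HS, from -0.085 to 0.033 in HL stems and from -0.0013 to 0.081 in HL&HS stems.

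Without the filter on low values the counts in leaf at 2 min were 7 under HL, 3 under HS, 5 in the heated leaf of HL&HS plants, and 0 for HL+HS against either HL or HS. At 8 min it was 1 in the group titled HS. In stem they were 4 under HL+HS at 2 min, and 9 (HS) and 7 (HL&HS) at 8 min. With the compared groups fitted alone they were 11 (HS) and 14 (heated leaf) in leaf at 2 min, 2 (titled HS) at 8 min, 10 and 6 for HL+HS against HL and HS at 2 min, 4 for stem HL+HS at 2 min, 1 and 4 for stem HL&HS against HL+HS at 2 and 8 min, and 8 and 11 for the leaf minus stem response at 2 and 8 min. EdgeR gave 1 for titled HS, 11 and 6 for HL+HS against HL and HS at 2 min, 4 and 3 for stem HL+HS at 2 and 8 min, 1 and 3 for stem HL&HS against HL+HS, and 1 and 13 for the leaf minus stem response. DESeq2 gave 1 for titled HS, 8 for HL+HS against HL at 2 min, 4 for stem HL+HS at 2 min, 4 for stem HL at 8 min, 1 and 2 for stem HL&HS against HL+HS, and 2 and 15 for the leaf minus stem response. Without the 2 min libraries, an alternative chosen after seeing the data, the counts at 8 min were 1 for titled HS, 3 for stem HL+HS, 3 for stem HL&HS against HL+HS, and 15 for the leaf minus stem response. Over all genes, fitting the compared groups alone called 2327 higher and 1163 lower for titled HL at 8 min (3452 and 2545 reported), 1453 and 1884 for HL+HS against titled HL (2913 and 3231), and 1232 and 1049 for stem HL&HS against HL+HS at 2 min (270 and 305), where edgeR gave 986 and 764 and DESeq2 833 and 778. The causes of these changes were not tested.

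Leaving out 1 library in turn gave, in leaf at 2 min, 3 to 10 (HL), 2 to 5 (HS), 12 to 22 (HL+HS), 2 to 10 (heated leaf), 0 to 6 (HL+HS against HL) and 0 to 4 (HL+HS against HS), and 1 to 7 for titled HS at 8 min. In stem it gave 4 to 8 (HL), 5 to 10 (HS) and 3 to 6 (HL&HS) at 2 min, 3 to 7 (HL), 2 to 6 (HS), 3 to 7 (HL+HS) and 2 to 6 (HL&HS) at 8 min, and 2 to 14 for HL&HS against HL+HS at 8 min. The leaf minus stem response at 2 min ranged from 2 to 5. Of the results for named genes, 78 of 288 lost their call when 1 library was left out, 9 of 48 with edgeR and 10 of 48 with DESeq2.

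Without ATCG00020, the log2 ratio of the chloroplast share to control was -0.18 (HS), -0.26 (HL+HS) and -0.20 (lit leaf) in leaf at 2 min, -0.076 for stem HL+HS at 2 min, and 1.14 for leaf control over stem control, against -0.29, -0.36, -0.26, -0.12 and 1.40 with it. The limit on counts left 27 chloroplast genes in leaf and 59 in stem untested, of which 3 and 2 had no read in that tissue.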

Other observations

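The chloroplast sequence of TAIR10.1 has 154478 bases. Of its 50-base windows, 33.951% occur more than once within it and 3.023% occur elsewhere in the genome, and 31 of its 129 annotated genes have only windows that are repeated. These genes could not be tied to the 133 identifiers, of which 30 were at 0 in every library.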
